A study of Mus musculus with 13 samples.

Results

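The genes described here are 43 mouse genes of glutathione metabolism, antioxidant defence and xenobiotic handling, taken as a list of gene symbols by known role, with no cut on a measured value. They were measured by RNA-seq in 2-cell embryos, and 42 of the 43 were listed in at least 1 of 9 embryo libraries. Of these, 33 reached a mean of 1 FPKM (fragments per kilobase of transcript, scaled to the mapped fragments of the library) over the 9 libraries and were tested, 9 were listed below that level, and Gsta2 was listed in no library. All 3 groups came from Swiss mice by in vitro fertilisation. Control embryos had fathers injected intraperitoneally with the PBS vehicle, on the 5 days on which the other fathers received acrylamide at 25 mg per kg body weight per day. For AAE embryos, sperm was taken 3 days after the last injection, so that it was exposed in the epididymis. For AAS embryos it was taken 24 days after the last injection, so that it was exposed as spermatocytes. The embryos themselves received no acrylamide by these labels. Each group had 3 libraries, each made from a pool of embryos, and no label says that they came from separate fathers, so each p-value reflects library-to-library spread, which may be technical. When control sperm was collected is not given in the sources used here. In pooled embryos, fewer cells of a kind and less RNA per cell cannot be told apart.

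Acrylamide is an electrophile that reacts with thiols, and it is cleared largely by conjugation to glutathione. CYP2E1 oxidises it to the epoxide glycidamide, which epoxide hydrolase and glutathione S-transferases remove. NRF2, encoded by Nfe2l2 and held down by KEAP1, switches on many of these enzymes through antioxidant response elements in their promoters. A 2-cell embryo still carries much maternal RNA from the oocyte while its own genome is being switched on.

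The upstream sequences that bear on this are those that hold the core of that element. The core was searched as TGACNNNGC or TGAGNNNGC on both strands, from 250 bases before to 50 bases after each annotated start, in RefSeq sequence of build GRCm38.p6. Of the members, 35 had such a window, and 14 of these (40.0%) held the core, against 30.8% of all 27025 genes in the same table. A match is a run of letters and not a shown binding site. Stretches are shown for some of the members that held the core and are described below. They are on the strand of the gene, 5′ to 3′, with the core in capitals. In Txnrd1, Slc7a11, Prdx1 and G6pdx the core shown reads on the opposite strand, so that the capitals are its reverse complement. In Gstp1 and Gstp2 the core shown reads on the strand of the gene. Prdx1 and Gstp1 each had a further match in the window, on the opposite strand, which is not shown.

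Txnrd1 (chr10:82859088-82859148, + strand): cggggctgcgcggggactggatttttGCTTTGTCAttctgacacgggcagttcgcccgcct
Slc7a11 (chr3:50443676-50443736, - strand): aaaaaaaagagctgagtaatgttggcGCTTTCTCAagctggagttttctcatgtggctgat
Prdx1 (chr4:116685440-116685500, + strand): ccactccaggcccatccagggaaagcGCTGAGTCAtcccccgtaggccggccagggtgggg
G6pdx (chrX:74428903-74428963, - strand): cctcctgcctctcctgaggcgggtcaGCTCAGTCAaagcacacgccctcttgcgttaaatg
Gstp1 (chr19:4037952-4038012, - strand): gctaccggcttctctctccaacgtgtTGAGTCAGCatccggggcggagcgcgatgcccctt
Gstp2 (chr19:4042276-4042336, - strand): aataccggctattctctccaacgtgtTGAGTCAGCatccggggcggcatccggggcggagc

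The Gstp1 and Gstp2 stretches, aligned at the core, had the same base at 46 of 61 positions. These genes are neighbouring copies, and reads may be shared between them. The windows of Txnrd1 and Slc7a11 belong to annotated starts inside the span of the gene. Nqo1, a textbook NRF2 target, had no match in the window given. Cat and Gpx4, also described below, had none either.

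The libraries listed 13675 to 14392 genes in control, 11625 to 13914 in AAE and 12173 to 12673 in AAS embryos, and 37 to 39, 34 to 36 and 32 to 34 of the members. Read counts were not used here, so the depth behind an FPKM value is unknown. AAE library 3 and AAS library 2 stood apart, with median correlations with the other libraries of 0.872 and 0.870, against 0.894 to 0.927 for the other 7. Oocyte genes such as Bmp15 and Gdf9 (14 of 14 listed, summed FPKM 1742 to 2425) and genes of the 2-cell stage such as Zscan4c and Zfp352 (11 of 12 listed, 1722 to 2432) marked every library as what its label says. Summed FPKM of 11 cumulus and granulosa markers was 4.05 to 7.05 in control, 0.68 to 4.62 in AAE and 0.99 to 8.67 in AAS libraries, leaving out Nr5a2, which early embryos also express. With Nr5a2 included, the sums were 44.93 to 48.11 in control, 16.18 to 38.18 in AAE and 22.6 to 42.98 in AAS libraries. Every control library then stood above every exposed library. For sperm markers the range was 0.51 to 1.85, 3.55 to 7.02 and 0 to 0.82, with 6 of 10 at 0 throughout, Prm1 and Tnp1 among them. For blood it was 0.60 to 6.75, 1.51 to 8.58 and 1.13 to 2.15, with 5 of 8 at 0 throughout. For 6 epithelium and liver markers other than Epcam it was 0.94 to 3.48, 1.63 to 4.58 and 0.80 to 7.14, and Ttr and Apoa1 were at 0 throughout. With Epcam included, the sums were 19.15 to 50.73 in control, 14.06 to 28.1 in AAE and 8.48 to 21.98 in AAS libraries.

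The levels of the members spanned a wide range, with G6pdx at the top. G6pdx, which encodes the glucose-6-phosphate dehydrogenase that supplies NADPH for glutathione recycling, was listed at 781, 766 and 713 FPKM in control, 618, 794 and 906 in AAE, and 731, 817 and 664 in AAS embryos. It stood above 99.8% of the genes listed and made up 42.5% to 58.5% of the summed FPKM of all members in a library, and its coefficient of variation over the 9 libraries was 11.3%. Its autosomal copy G6pd2 did not exceed 0.16 FPKM in any library. The log2 difference of G6pdx from control was 0.02 in AAE, with a 95% interval from -0.35 to 0.39, and -0.03 in AAS embryos, with an interval from -0.41 to 0.34. Next came the peroxiredoxins Prdx1 and Prdx2 with means over all libraries of 222 and 128 FPKM, the superoxide dismutase Sod1 with 94.5 FPKM, and the transferase Gstm1 with 58.8 FPKM.

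**Figure D1:**
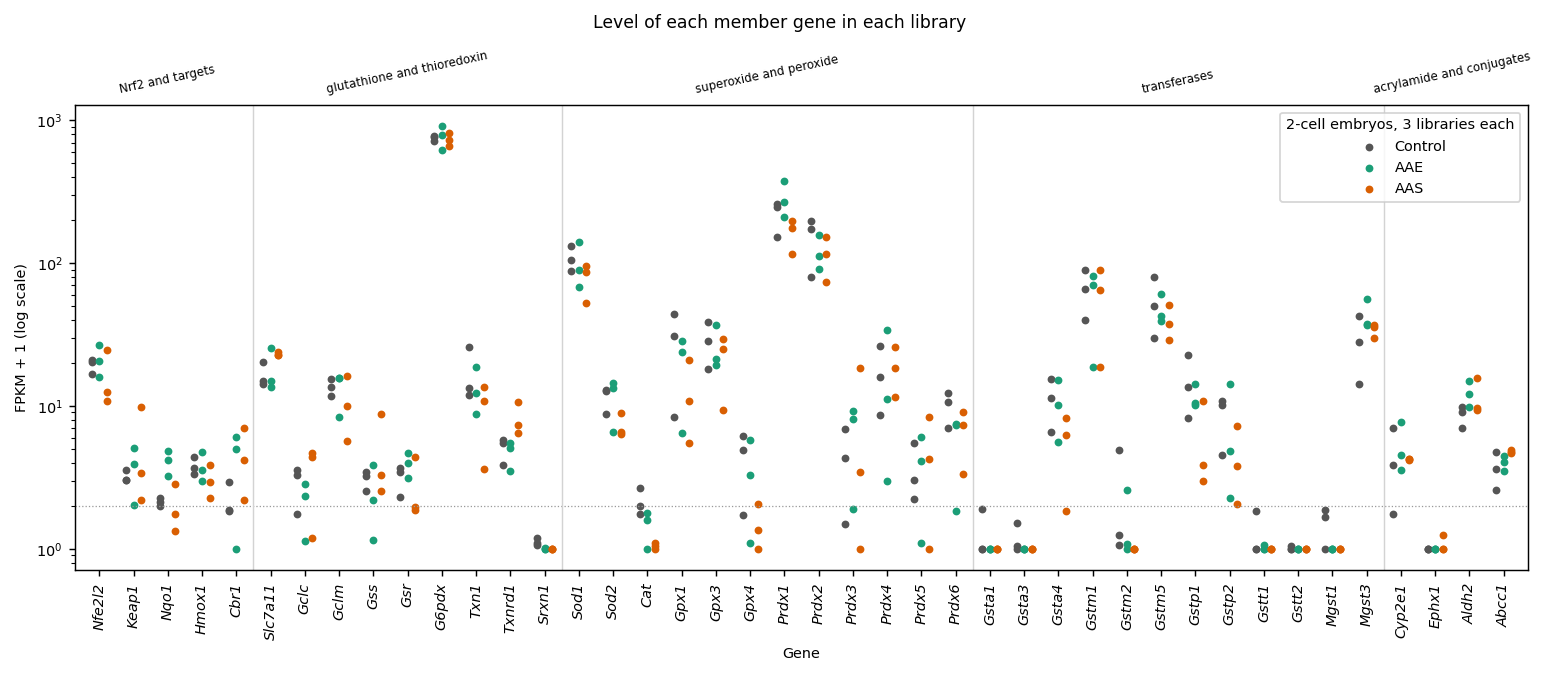
FPKM + 1 on a log axis for the 42 listed members in each of the 9 libraries, ordered by role, with control, AAE and AAS libraries side by side. The dotted line marks 1 FPKM. G6pdx stands at 618 FPKM or more in every library, while 9 members have a mean under 1 FPKM.

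The question put to these genes was whether embryos from acrylamide-exposed sperm differed from controls, and whether the sperm stage at exposure mattered. No member passed an adjusted p of 0.05 in any of the 3 comparisons (limma, Benjamini-Hochberg adjustment over 9766 genes). The share of all genes called was 0% in AAE against control, 0% in AAS against control and 0% in AAS against AAE. At an unadjusted p under 0.05, limma counted 0 of the 33 tested members in AAE against control, where 0.891% of all genes were higher and 1.22% lower. In AAS against control it counted 1 member, Gstp1, which was lower, where 1.53% of all genes were higher and 4.64% lower. In AAS against AAE it counted 3 members, Prdx1, Nqo1 and Gstp1, all lower, where 2.20% of all genes were higher and 5.53% lower. The 2 comparisons with control share the control libraries. Among the 9 members below the filter, a limma fit with no filter had Srxn1 and Mgst1 lower at that p in both of them. Srxn1 did not exceed 0.18 FPKM in any library. Mgst1 was at 0 in all AAE and all AAS libraries, against 0.86, 0 and 0.68 FPKM in control. Its log2 difference was therefore the same -0.55 in both comparisons, which are not 2 separate results. Cat was lower at that p in AAS against control. The share of all genes in that fit was not counted, so these values are not read as a result about the members. The authors' deposited table called 15, 35 and 55 genes in these comparisons at its own adjusted p, and 0 members in each. At its own unadjusted p under 0.05 it had 1 of 35, 4 of 35 and 2 of 33 members, against 6%, 9.6% and 8.65% of its genes. Its members are not the same set as those tested here, since Cat and Gstm2 are among them. These were Nqo1, higher in AAE against control, then Slc7a11 and Txnrd1, higher, and Cat and Gstm2, lower, in AAS against control. In AAS against AAE they were Txnrd1, higher, and Prdx1, lower. Gstp1 was not among them.

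The 95% intervals show what 3 libraries a group could resolve. Their half-width on the log2 scale was 0.37 for G6pdx, 1.00 at the median member and 2.18 for Prdx3, so smaller differences could not be told from 0. They hold for each gene alone and are not adjusted for the number of genes, so a call needed a larger difference. The interval left out 0 for 1 member in AAS against control and 3 in AAS against AAE, and none of these passed the adjusted p. The median within-group SD of log2 values was 0.66 for the tested members and 0.50 for all genes tested.

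The median log2 difference of the 33 tested members was -0.09 in AAE against control, with 13 higher and 20 lower, and -0.35 in AAS against control, with 12 higher and 21 lower. Over all genes tested the medians were -0.05 and -0.11, and 44.6% and 40.6% of genes were higher. Between AAS and AAE the members' median was -0.32, with 11 higher and 22 lower, against -0.05 for all genes, of which 45.5% were higher. Leaving out single libraries moved these medians in both directions, and changed the sign only in AAE against control. In AAE against control the median was 0.03 without control library 1, 0.05 without AAE library 1 and 0.07 without AAE library 3, but -0.21 without AAE library 2. In AAS against control it was -0.12 without AAS library 2, -0.21 without control library 1 and -0.23 without AAS library 3, but -0.44 without control library 3. In AAS against AAE it was -0.10 without AAE library 2 and -0.13 without AAS library 2, but -0.41 without AAE library 3. Scaling moved it too: the AAS against control value was -0.25 with every library centred on its median gene, -0.23 with equal library sums and -0.17, with 15 members higher and 18 lower, after quantile normalisation.

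**Figure D2:**
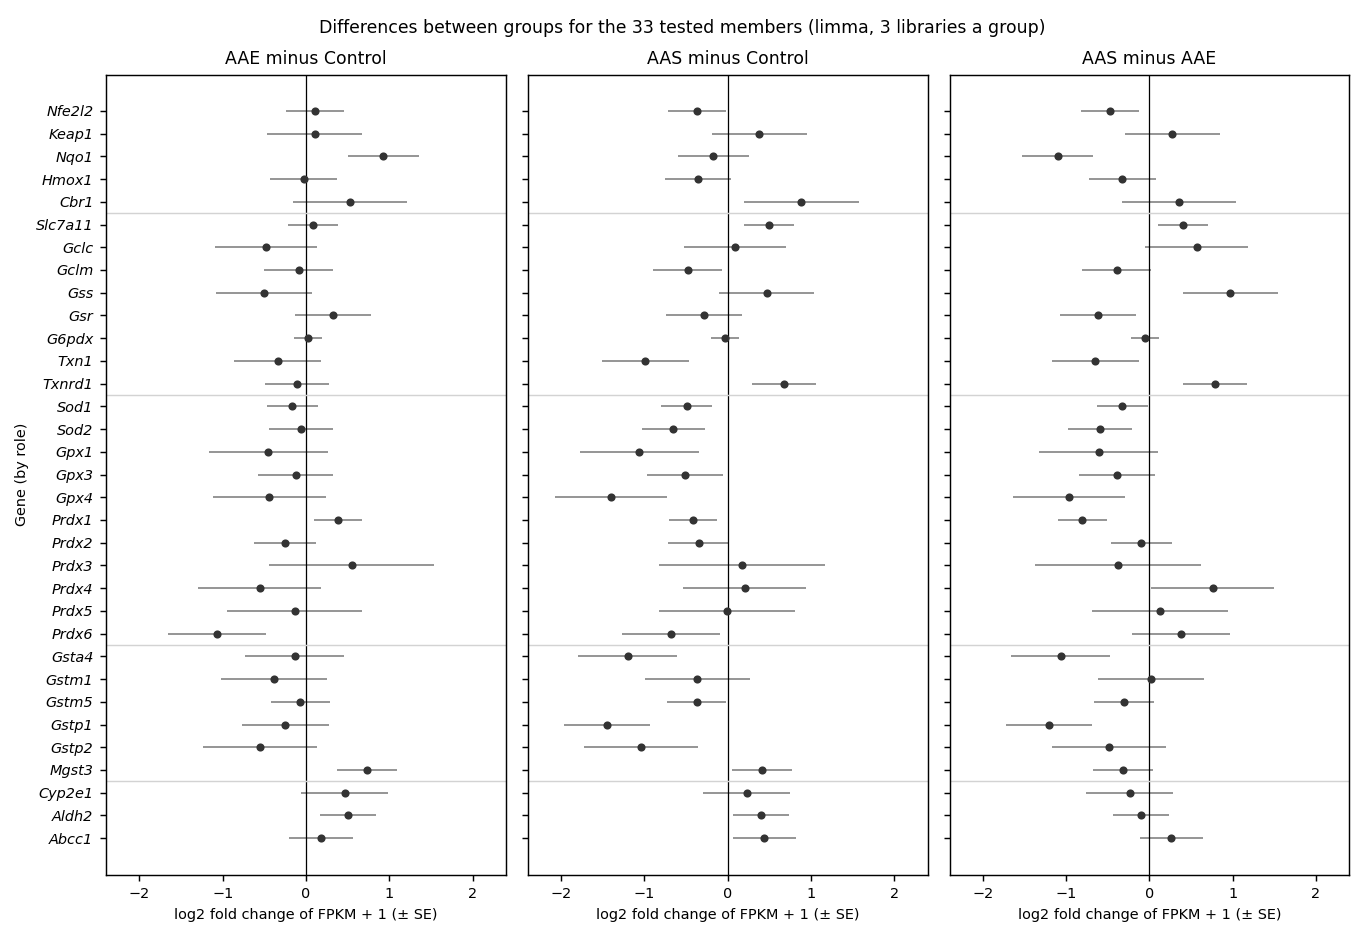
Log2 fold change of FPKM + 1 with its standard error for the 33 tested members, by role, in each of the 3 comparisons (limma, 3 libraries a group). No member passed an adjusted p of 0.05, and Gstp1 has the lowest AAS against control value, -1.45.

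The role group of NRF2 and cytoprotective targets held Nfe2l2, Keap1, Nqo1, Hmox1 and Cbr1, and these were measured at low to moderate levels. Their means over all libraries ran from 1.73 FPKM for Nqo1 to 17.8 FPKM for Nfe2l2. Enzymes that NRF2 may switch on are also in the other role groups. Nqo1, a quinone reductase, was listed at 0.98, 1.14 and 1.25 FPKM in control, 3.19, 2.21 and 3.86 in AAE, and 0.33, 0.74 and 1.86 in AAS embryos. Every AAE library was above every control and every AAS library, and AAS and control overlapped. The log2 differences were 0.93 ± 0.43 (SE) for AAE against control, with an adjusted p of 1, and -1.10 ± 0.43 for AAS against AAE, with an adjusted p of 0.596 (limma). In AAE against control Nqo1 was the only tested member whose groups did not overlap, where 3.75% of all genes lay wholly above and 4.78% wholly below control. The authors' deposited table gives Nqo1 a log2 fold change of 1.52 in that comparison, with an adjusted p of 0.956.

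Nfe2l2 itself was listed at 15.8, 19.8 and 19.2 FPKM in control, 15.0, 19.8 and 25.6 in AAE, and 9.81, 23.6 and 11.4 in AAS embryos. Keap1, whose product marks NRF2 for degradation, was listed at 2.04, 2.58 and 2.03 FPKM in control, 1.04, 2.95 and 4.08 in AAE, and 8.76, 1.18 and 2.38 in AAS embryos. For both genes the groups overlapped and the exposed libraries spread more widely than the control libraries. The haem oxygenase gene Hmox1, a stress-induced NRF2 target, was listed at 3.37, 2.65 and 2.36 FPKM in control, 2.55, 3.74 and 1.99 in AAE, and 1.26, 1.95 and 2.84 in AAS embryos. The carbonyl reductase gene Cbr1 was listed at 1.94, 0.83 and 0.88 FPKM in control, 5.09, 4 and 0 in AAE, and 5.98, 3.16 and 1.19 in AAS embryos. Hmox1 overlapped in all groups, and Cbr1 was above the highest control in 2 AAE and 2 AAS libraries while AAE library 3 was at 0. The adjusted p of these 4 genes was 1 in AAE against control and 0.817 to 0.921 in AAS against control (limma).

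**Figure D3:**
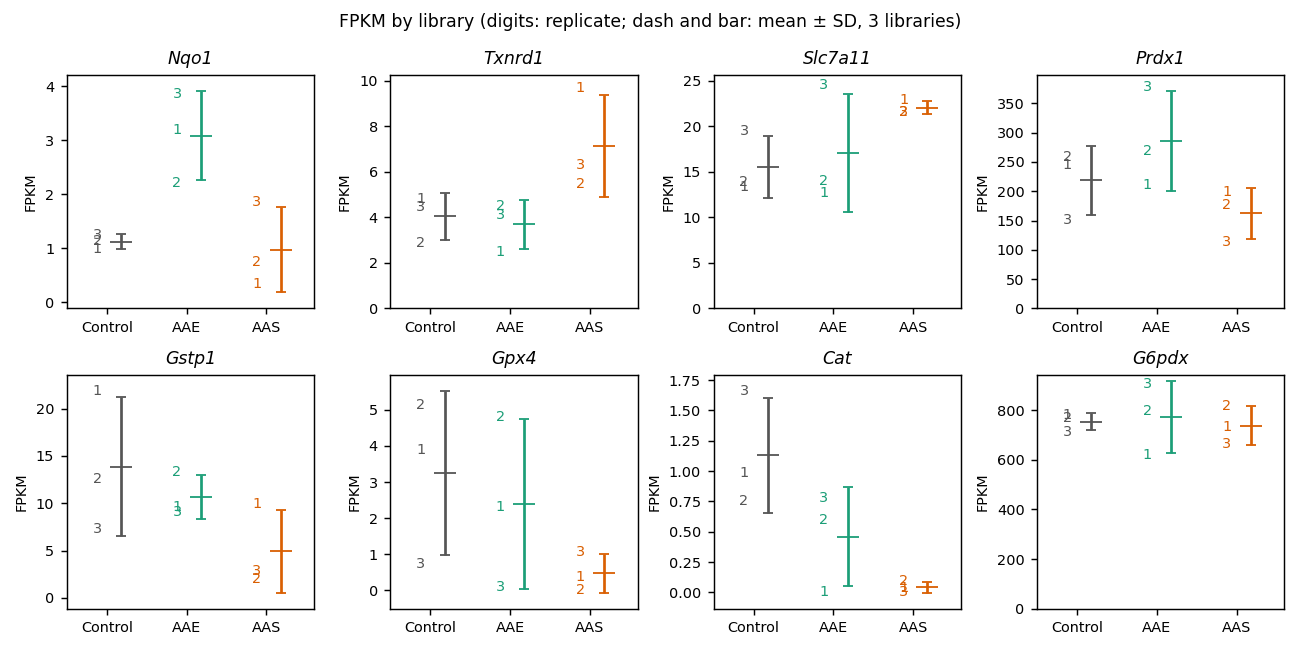
FPKM of 8 members in each library, with digits for the replicate and a dash with a bar for the mean ± SD of 3 libraries. Nqo1 is above control in all 3 AAE libraries, Txnrd1 and Slc7a11 are above control in all 3 AAS libraries, Cat is below control in all 3 AAS libraries, and G6pdx overlaps in all groups.

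Among the genes that supply and recycle glutathione and thioredoxin, 2 members had all AAS libraries above all control libraries. Txnrd1, the cytosolic thioredoxin reductase, was listed at 4.81, 2.87 and 4.47 FPKM in control, 2.48, 4.52 and 4.11 in AAE, and 9.70, 5.45 and 6.30 in AAS embryos. Slc7a11, the cystine transporter that imports the limiting building block of glutathione, was listed at 13.4, 13.9 and 19.5 FPKM in control, 12.6, 14.0 and 24.6 in AAE, and 22.9, 21.6 and 21.6 in AAS embryos. AAS libraries of Txnrd1 were also above all AAE libraries, whereas AAE library 3 of Slc7a11 was the highest of all 9. The log2 difference of AAS from control was 0.68 ± 0.38 for Txnrd1 and 0.49 ± 0.30 for Slc7a11, each with an adjusted p of 0.796 (limma). In this comparison 2 of the 33 tested members lay wholly above control, beside 4.52% of all genes, and 0 of 33 lay wholly below, beside 8.60%.

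The other members of this group overlapped between groups. Txn1, thioredoxin, was listed at 24.9, 11.01 and 12.3 FPKM in control, 7.81, 17.7 and 11.4 in AAE, and 12.5, 2.59 and 9.89 in AAS embryos, with a log2 difference of -0.99 ± 0.52 and an adjusted p of 0.792 in AAS against control (limma). That value was -0.41 without AAS library 2 and -0.65 without control library 1. Gclm, the modifier subunit of the enzyme that makes the first step of glutathione synthesis, was listed at 10.7, 14.6 and 12.6 FPKM in control, 14.7, 14.6 and 7.37 in AAE, and 15.1, 4.66 and 8.92 in AAS embryos. For Txn1 and Gclm, AAS library 2 was the lowest of all 9 libraries. Gclc, the catalytic subunit, was listed at 0.74, 2.58 and 2.26 FPKM in control, 1.84, 1.33 and 0.13 in AAE, and 0.18, 3.70 and 3.37 in AAS embryos. Gss, glutathione synthetase, was listed at 2.23, 1.52 and 2.45 FPKM in control, 0.16, 2.86 and 1.19 in AAE, and 1.54, 2.3 and 7.83 in AAS embryos. Gsr, which reduces oxidised glutathione, was listed at 2.42, 2.67 and 1.32 FPKM in control, 3.65, 2.98 and 2.12 in AAE, and 0.96, 3.39 and 0.87 in AAS embryos. These 3 low genes had libraries that differed severalfold within a group. Srxn1, sulfiredoxin, did not exceed 0.18 FPKM and was at 0 in 2 AAE libraries and all AAS libraries. Its control values were 0.06, 0.18 and 0.09 FPKM, and AAE library 1 had 0.02 FPKM, so that all AAE and all AAS libraries were below all control libraries. Each non-overlap gives p = 0.1 in the two-sided exact permutation test, the smallest it allows, whatever the size of the gap.

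Of the 11 tested genes that remove superoxide and peroxide, 9 had a log2 difference below 0 in AAS against control, with a median of -0.49, and 9 also in AAE against control, with a median of -0.17. Over all genes 40.6% and 44.6% were higher in these comparisons, and no gene of this group passed the test. Prdx1, a cytosolic peroxiredoxin, was listed at 245, 259 and 151 FPKM in control, 211, 268 and 378 in AAE, and 198, 176 and 114 in AAS embryos. Every AAS library was below every AAE library, and both groups overlapped with control. The log2 difference of AAS from AAE was -0.81 ± 0.29, with an adjusted p of 0.568 (limma), the smallest of any member. In that comparison 2 of the 33 tested members (Prdx1 and Nqo1) lay wholly below, beside 6.98% of all genes. Wholly above lay also 2 of 33 (Txnrd1 and Abcc1), beside 4.28%.

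Gpx4, the glutathione peroxidase of membrane lipids, was listed at 3.90, 5.13 and 0.73 FPKM in control, 2.3, 4.80 and 0.09 in AAE, and 0.36, 0 and 1.06 in AAS embryos. Gpx1, the cytosolic peroxidase, was listed at 42.8, 29.7 and 7.42 FPKM in control, 22.95, 27.5 and 5.49 in AAE, and 19.9, 4.52 and 9.81 in AAS embryos. In both genes control library 3 and AAE library 3 lay within or below the range of the AAS libraries. The log2 difference of AAS from control was -1.40 ± 0.67 for Gpx4, with an adjusted p of 0.780, and -1.06 ± 0.72 for Gpx1, with an adjusted p of 0.805 (limma). The Gpx1 value was -0.58 without control library 1 or AAS library 2, and -1.77 without control library 3.

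Sod2, the mitochondrial superoxide dismutase, was listed at 11.8, 11.9 and 7.77 FPKM in control, 13.6, 12.4 and 5.57 in AAE, and 7.87, 5.34 and 5.60 in AAS embryos. Sod1, the cytosolic form, was listed at 131, 87.7 and 104 FPKM in control, 67.3, 88.5 and 140 in AAE, and 85.6, 95.2 and 51.7 in AAS embryos. Their AAS against control differences were -0.65 ± 0.38 and -0.49 ± 0.31 on the log2 scale, each with an adjusted p of 0.796 (limma), and the groups overlapped. The Sod1 value was -0.23 without AAS library 3. Prdx2 was listed at 195, 174 and 78.7 FPKM in control, 112, 158 and 89.5 in AAE, and 152, 73.0 and 115 in AAS embryos. Prdx4, the peroxiredoxin of the endoplasmic reticulum, was listed at 25.1, 15.1 and 7.63 FPKM in control, 10.2, 33.1 and 1.98 in AAE, and 17.5, 10.6 and 24.9 in AAS embryos. Prdx6, which also has phospholipase activity, was listed at 11.4, 9.70 and 5.97 FPKM in control, 6.49, 6.33 and 0.84 in AAE, and 8.07, 2.34 and 6.39 in AAS embryos. Prdx6 had the largest AAE against control value of the group, -1.07 ± 0.59 on the log2 scale with an adjusted p of 1 (limma), and -0.40 without AAE library 3. Of the remaining tested members, the secreted peroxidase Gpx3 ranged from 8.40 to 37.9 FPKM, mitochondrial Prdx3 from 0 to 17.4 FPKM and Prdx5 from 0 to 7.38 FPKM.

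Cat, which encodes catalase, had a mean below the level needed for the test. It was listed at 0.98, 0.75 and 1.66 FPKM in control, 0, 0.60 and 0.78 in AAE, and 0.04, 0.09 and 0 in AAS embryos. All AAS libraries were below all control libraries, and the two-sided exact permutation test gave p = 0.1, the smallest that 3 libraries against 3 allow. Any 2 groups of 3 that do not overlap give this value, so it adds nothing to the non-overlap. In a limma fit of all 16739 genes with no filter the log2 difference was -1.01 ± 0.25 with an adjusted p of 0.626, on the log2(FPKM + 1) scale, which understates changes of such low genes. The authors' deposited table gives Cat a log2 fold change of -4.60 with an adjusted p of 0.152 in this comparison. AAS libraries also listed fewer genes than the control libraries, and the part of this in the low Cat values was not tested.

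**Figure D4:**
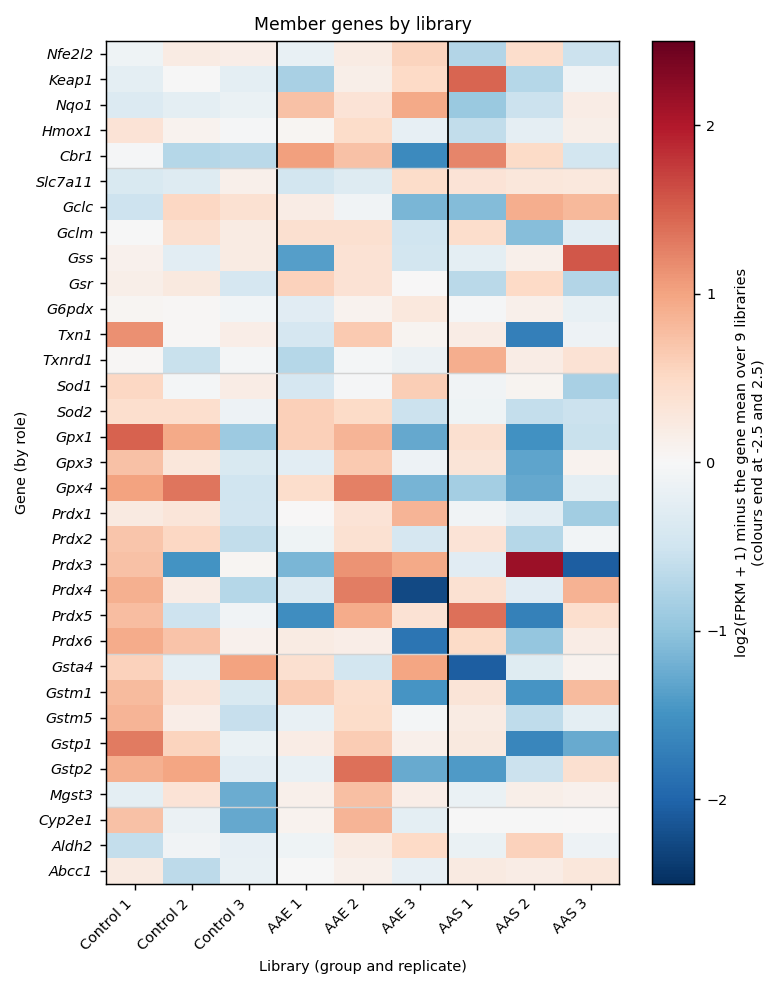
Deviation of log2(FPKM + 1) from the mean of each gene over 9 libraries, for the 33 tested members in rows by role and the libraries in columns, red above and blue below the mean. Control 3, AAE 3 and AAS 2 are the lowest of their group for 18, 16 and 17 of the 33 members.

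The variation within groups ran across members, as the map of deviations by library shows. Control library 3 was the lowest of its group for 54.5% of the tested members and 45.4% of all genes tested. In AAE, library 3 was the lowest for 48.5% of members and 44.8% of all genes, library 1 for 45.5% and 32.5%, and library 2 for 6.1% and 22.7%. AAS library 2 was the lowest for 51.5% and 42.7%. These values describe the libraries, and their part in the differences between groups was not tested.

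The glutathione S-transferases, which couple electrophiles to glutathione, included Gstp1, which had the smallest p of the 33 tested members in AAS against control. This gene of the pi class was listed at 21.9, 12.5 and 7.27 FPKM in control, 9.56, 13.3 and 9.12 in AAE, and 9.91, 1.97 and 2.85 in AAS embryos. AAS libraries 2 and 3 were the lowest of all, while AAS library 1 lay within the range of control. The log2 difference of AAS from control was -1.45 ± 0.52 with an adjusted p of 0.748, and of AAS from AAE -1.21 ± 0.52 with an adjusted p of 0.615 (limma). Its neighbour Gstp2 was listed at 9.11, 9.89 and 3.56 FPKM in control, 3.83, 13.4 and 1.28 in AAE, and 1.07, 2.80 and 6.25 in AAS embryos, with a log2 difference of -1.05 ± 0.69 and an adjusted p of 0.7999 in AAS against control (limma), and a value of -0.60 without AAS library 1. Since reads may be divided between these copies, neither value is certain on its own.

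Gsta4, an alpha class transferase that prefers lipid aldehydes, was listed at 10.4, 5.53 and 14.4 FPKM in control, 9.19, 4.56 and 14.2 in AAE, and 0.85, 5.24 and 7.19 in AAS embryos. Control and AAE were alike in range, and the AAS against control difference was -1.20 ± 0.59 on the log2 scale with an adjusted p of 0.783 (limma), and -0.55 without AAS library 1. Gstm1, of the mu class, was listed at 88.4, 64.5 and 39.0 FPKM in control, 79.7, 69.2 and 17.7 in AAE, and 64.3, 17.8 and 88.8 in AAS embryos. Gstm5 was listed at 78.7, 48.9 and 28.9 FPKM in control, 38.3, 60.3 and 41.9 in AAE, and 50.0, 27.8 and 36.3 in AAS embryos. Mgst3, a membrane-bound transferase, was listed at 27.1, 41.5 and 13.2 FPKM in control, 35.6, 54.9 and 36.7 in AAE, and 28.9, 36.2 and 34.8 in AAS embryos. Mgst3 had the largest positive value of the group in AAE against control, 0.73 ± 0.36 on the log2 scale with an adjusted p of 1 (limma), and 0.30 without control library 3, its lowest library.

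The other transferases were barely detected. Gsta1, Gsta3, Gstt2 and Mgst1 were listed only in control libraries, at no more than 0.90 FPKM, and Gstt1 did not exceed 0.83 FPKM. Gstm2 was listed at 3.91, 0.24 and 0.06 FPKM in control, 0, 1.59 and 0.08 in AAE, and 0 in all AAS embryos, so that AAS was below every control library. The two-sided exact permutation test gave p = 0.1, as for any such non-overlap of 3 libraries against 3. Of the 9 members below the test's level, 4 were thus listed in control only, 3 in control and AAE, 1 in all groups and 1 in AAS only. Every AAS library and 2 of the 3 AAE libraries listed fewer genes than every control library, and the part of that in these counts was not tested. Among all genes below that level, the shares with these listings, or wholly below control, were not counted. These counts and the non-overlap of Srxn1, Cat and Gstm2 are therefore not read as a result about the members.

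Of the genes that activate acrylamide or clear its products, Cyp2e1 was listed at 6.01, 2.85 and 0.75 FPKM in control, 3.52, 6.66 and 2.58 in AAE, and 3.24, 3.21 and 3.25 in AAS embryos. Ephx1, microsomal epoxide hydrolase, was listed only in AAS library 3, at 0.25 FPKM. RNA of the activating enzyme was thus listed at 0.75 FPKM or more in every library, while the hydrolase was at or near 0. Aldh2, mitochondrial aldehyde dehydrogenase, was listed at 5.98, 8.90 and 8.09 FPKM in control, 8.79, 11.2 and 13.9 in AAE, and 8.44, 14.6 and 8.67 in AAS embryos. Abcc1, which exports glutathione conjugates, was listed at 3.73, 1.59 and 2.59 FPKM in control, 3.06, 3.47 and 2.52 in AAE, and 3.76, 3.66 and 3.94 in AAS embryos. All AAS libraries of Abcc1 were above all AAE libraries, and they overlapped with control library 1. The log2 differences from control were 0.50 ± 0.34 in AAE and 0.39 ± 0.34 in AAS for Aldh2, and 0.18 ± 0.38 and 0.44 ± 0.38 for Abcc1, none past the threshold in limma. In AAS the Aldh2 value was 0.16 without AAS library 2 and 0.25 without control library 1, and the Abcc1 value was 0.22 without control library 2. In AAE the Abcc1 value ran from -0.04, without control library 2, to 0.39, without control library 1.

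The wider pathways were read from 99 further genes, of which 57 were tested and 0 passed an adjusted p of 0.05 in any comparison (limma), with smallest adjusted p of 1, 0.748 and 0.384. Of the 57, 5 lay wholly above and 2 wholly below control in AAE, against 3.75% and 4.78% of all genes. In AAS, 0 lay wholly above and 9 wholly below control, against 4.52% and 8.60%, and 0 lay wholly above and 6 wholly below AAE, against 4.28% and 6.98%. Among other glutathione enzymes, 12 of 29 were tested. Glo1, the glyoxalase that uses glutathione to detoxify methylglyoxal, was listed at 1.81, 3.04 and 1.45 FPKM in control, 4.87, 4.61 and 11.9 in AAE, and 3.82, 2.65 and 4.82 in AAS embryos. Every AAE library was above every control library, with a log2 difference of 1.31 ± 0.44 and an adjusted p of 1 (limma). Hagh, the next enzyme of that path, was listed at 4.04, 3.44 and 0.52 FPKM in control, 1.84, 1.39 and 0 in AAE, and 0, 0.39 and 0 in AAS embryos. Glrx, glutaredoxin, was listed at 27.4, 47.0 and 23.9 FPKM in control, 18.5, 30.2 and 41.9 in AAE, and 14.2, 16.0 and 19.0 in AAS embryos. In AAS against control, Hagh and Glrx were below control in every library, with log2 differences of -1.54 ± 0.57 and -0.90 ± 0.34 and adjusted p of 0.748 and 0.750 (limma). Chac1, which degrades glutathione and is named after its values were seen, was also wholly below control there, with 0.04, 0 and 0.12 FPKM in AAS libraries against 3.72, 1.95 and 0.79 in control libraries, a log2 difference of -1.47 and an adjusted p of 0.783 (limma).

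Of the other thioredoxin and superoxide genes, 9 of 13 were tested. Msra, a methionine sulfoxide reductase, was listed at 1.11, 0.37 and 1.01 FPKM in control, 2.26, 2.41 and 5.25 in AAE, and 0, 0.06 and 0.05 in AAS embryos. The 3 groups did not overlap at all, with AAE highest and AAS lowest, and the AAS against AAE difference was -1.99 ± 0.43 on the log2 scale with an adjusted p of 0.384 (limma). The summed FPKM of the sperm markers separated in the same order, at 3.55 to 7.02 in AAE, 0.51 to 1.85 in control and 0 to 0.82 in AAS libraries, and its part in the Msra values was not tested. Only 4 of the 10 sperm markers were listed in any library, and 1 reached a mean of 1 FPKM, so that sum rests on few genes. The authors' deposited table gives Msra a log2 fold change of -6.45 and an adjusted p of 0.0233 in that comparison. The log2 differences of the mitochondrial thioredoxin gene Txn2 were 0.13 ± 0.28 in AAE and -0.48 ± 0.28 in AAS against control, and those of Txnl1 were -0.15 ± 0.28 and -0.41 ± 0.28. Txnl1 was wholly below control in AAS, with 12.1, 10.7 and 9.29 FPKM against 14.3, 16.5 and 12.95.

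Of 25 NRF2 partners, regulators and other targets, 21 were tested. Cul3, the ubiquitin ligase scaffold that works with KEAP1, had log2 differences from control of -0.53 ± 0.27 in AAE and -0.49 ± 0.27 in AAS embryos. It was listed at 136, 129 and 130 FPKM in control, 118, 101 and 62.0 in AAE, and 114, 65.6 and 108 in AAS embryos, so that both exposed groups were wholly below control. The AAS value was -0.24 without AAS library 2, and the AAE value was -0.27 at its weakest with 1 library left out. The ferritin heavy chain gene Fth1 had -0.04 ± 0.31 and -0.56 ± 0.31, and Taldo1, transaldolase, had -0.95 ± 0.47 and -0.34 ± 0.47. Taldo1 was wholly below control in AAE, with 2.24, 1.48 and 0.77 FPKM against 4.71, 3.57 and 2.92. Of 32 further xenobiotic enzymes and transporters, 15 were tested. Aldh1a2, which makes retinoic acid, had 0.74 ± 0.33 in AAE and -0.23 ± 0.33 in AAS embryos. The drug transporter gene Abcb1b had 0.76 ± 0.41 and 0.59 ± 0.41, Abcc4 had -0.37 ± 0.46 and -1.11 ± 0.46, and Aldh9a1 had -0.08 ± 0.23 and -0.48 ± 0.23. Aldh1a2 was wholly above control in AAE, at 12.3, 14.4 and 24.2 FPKM against 8.84, 7.78 and 11.7, and so was Abcb1b, at 3.55, 4.20 and 7.26 FPKM against 2.18, 3.12 and 2.05. Abcc4 was wholly below control in AAS, at 0.37, 0.40 and 0.30 FPKM against 0.66, 3.09 and 2.69. None of these passed the test.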

How the data were processed

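RNA-seq libraries of 9 pools of 2-cell embryos (3 control, 3 AAE, 3 AAS) were made with a Nugen Trio kit, per the labels' protocols. The deposited FPKM values are per transcript. HISAT2 2.0.4, DESeq2 and build mm10 are named per the submitters' processing notes, with no role or order. The authors' deposited comparison table holds log2 fold changes and p-values; its 18 columns of FPKM per library were not used. FPKM of the transcripts of each gene were summed, an unlisted transcript counting as 0. Those averaging at least 1 FPKM were fitted as log2(FPKM + 1) with limma 3.58.1 in R 4.3.3 (eBayes with a variance trend, all 9 libraries, two-sided, Benjamini-Hochberg over 9766 genes). FPKM are not counts, so no count test was run. Depth per library is unknown.

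The members and lists were chosen with earlier results of these data known. Library values are given for members past the threshold, for the 4 smallest p per role and comparison with control, for the 2 highest per role in control and for groups that do not overlap, and the 2 genes with the smallest p per comparison with control are named for each further list. Tables were made with Python 3.11.15. Sperm libraries were not used here. Other settings tried covered the pseudocount, filter, scaling, weights, transcript choice, replicate block and each library left out.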

Additional observations from a re-analysis of the deposited data

Results flagged for a closer look

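No tested member had all AAE libraries on one side of the control mean and all AAS libraries on the other. Among the 13 named genes of the wider lists, 2 had. Msra was above the control mean in every AAE library and below it in every AAS library, with a log2 difference of AAS from AAE of -1.99 and an adjusted p of 0.384 (limma). Aldh1a2 had the same order, with a difference of -0.97 and an adjusted p of 0.564 (limma). Groups of 3 libraries are too small to test for single outlying libraries.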

How the results depend on the processing

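No gene and no member was called in any of the 3 comparisons under the 19 alternatives run for each, and the smallest adjusted p of a tested member over them was 0.876, 0.317 and 0.317 (limma). Leaving out each library in turn, the members' median log2 difference ranged from -0.21 to 0.07 in AAE against control, from -0.44 to -0.12 in AAS against control and from -0.41 to -0.10 in AAS against AAE. Without AAE library 3 and AAS library 2, an alternative chosen after seeing the data, the medians were 0.07, -0.12 and -0.21. With a pseudocount of 5 the last 2 were -0.16 and -0.15. At least 1 alternative changed the sign for 23, 11 and 14 of the 33 members. Same-numbered libraries correlated at -0.18 to 0.21 in their deviations from group means, so the numbers were not taken as pairs; with a replicate block the counts of called genes and members stayed at 0 and the medians were -0.09, -0.35 and -0.32. With no counts and 3 libraries a group, low members could not be measured well.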
